A study of Mus musculus with 6 samples.

Results

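Interleukin-4 and the genes around it were followed in T follicular helper (Tfh) cells that lacked Bob1, the octamer coactivator encoded by Pou2af1. The genes were 7 of the 26211 gene names in the series: Il4 with the neighbouring cytokine genes Il13 and Il5, the genes Rad50 and Kif3a that flank them, Gata3, and the receptor gene Il4ra. They were chosen as the Th2 cytokine locus with the factor that activates it and the receptor that receives its product. Tfh cells were sorted from spleens of FoxP3GFP/DTR CD4Cre/+Bob1fl/fl mice (Bob1KO) and of FoxP3GFP/DTR CD4+/+Bob1fl/fl littermates (WT), aged 6 to 12 weeks and of the C57BL/6 background, on day 7 after an intraperitoneal injection of 100 µg of NP-CGG in complete Freund's adjuvant. Both genotypes therefore carried the floxed Bob1 alleles and the FoxP3 reporter and received the same immunization. Cre was driven by the Cd4 promoter, so deletion extended to all cells that had expressed Cd4 and was not specific to Tfh cells. The sorted cells were CD3+CD4+CXCR5+PD-1+ and GFP-, a gate that leaves out FoxP3+ follicular regulatory cells. Each group had 3 libraries, made with a low-input kit that does not mark the strand, from RNA of mice of separate experiments. The paper reports a larger n within each experiment, so a library may pool several mice. Each SD below is a spread between libraries.

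Tfh cells instruct germinal centre B cells through IL-4 and IL-21, and in this setting IL-4 supports B cell survival and class switching. In conventional Th2 cells, Il4, Il13 and Il5 lie in a shared locus in which the last introns of Rad50 hold a locus control region, and Gata3 opens this locus and activates its genes. IL-4 signals through the chain encoded by Il4ra to JAK kinases and the transcription factor STAT6. Tfh cells are known to make IL-4 with little IL-13 or IL-5.

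Levels are given as FPKM, in which the fragments of a gene are divided by its transcript length in kb and by each 1000000 fragments mapped, which allows genes to be compared per length. The interval widths that Cufflinks gave with each value corresponded to about 19000000 to 26900000 mapped fragments in the Bob1KO libraries and 20300000 to 23000000 in the WT libraries. Pou2af1 had 1.16, 0.237 and 0.317 FPKM in the Bob1KO libraries, against 46.1, 32.5 and 34.4 FPKM in the WT libraries, with a log2 fold change of -4.65 (SE 0.256, limma adjusted P = 0.00317). All 15 Tfh markers listed were above the filter of a mean of 1 FPKM, as were 10103 of the 23444 genes with a value. Passing this filter does not measure the purity of the sort. Cd4 had 466, 414 and 443 FPKM in Bob1KO, against 379, 357 and 299.9 FPKM in WT, without overlap and without passing the test (log2 fold change 0.36, SE 0.128, limma adjusted P = 0.907). Both libraries numbered 2 held the Y-linked transcript Ddx3y, at 27.9 FPKM in Bob1KO and 29.9 FPKM in WT, and the other 4 libraries were listed at 0 for it. A replicate number thus marked the same sex in both groups.

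Il4 lies on chromosome 11 of the mouse build GRCm38, chr11:53612460-53618669 on the minus strand. Il13 lies upstream of it on the same strand at chr11:53631324-53634702, followed by Rad50 on the minus strand at chr11:53649519-53707319 and Il5 on the plus strand at chr11:53720794-53725106, while Kif3a lies on the plus strand on the other side of Il4 at chr11:53567379-53601967. Gata3 is at chr2:9857078-9878600 on the minus strand and Il4ra at chr7:125552120-125579474 on the plus strand. Bob1 is recruited to DNA by Oct-1 and Oct-2 at the octamer, and Il4 is a known target of NFAT, so the promoters of Il4 and Il4ra are shown: among these genes Il4 held the most NFAT cores, and Il4ra alone held an octamer. The 250 bases before the RefSeq start, on the strand of the gene, were taken from RefSeq tables of GRCm38.p6, which held 6 of the 7 genes. Capitals mark the NFAT core GGAAA or its reverse TTTCC in Il4 (chr11:53618666-53618915, minus strand), and the octamer with 1 base free (N), ATGNAAAT, in Il4ra (chr7:125552021-125552270, plus strand).
Il4: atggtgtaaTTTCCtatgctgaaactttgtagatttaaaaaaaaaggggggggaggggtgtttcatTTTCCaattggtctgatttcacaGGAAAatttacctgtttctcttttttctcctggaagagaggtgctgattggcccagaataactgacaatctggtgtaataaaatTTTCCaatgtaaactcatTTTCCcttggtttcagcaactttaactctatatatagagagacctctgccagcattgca
Il4ra: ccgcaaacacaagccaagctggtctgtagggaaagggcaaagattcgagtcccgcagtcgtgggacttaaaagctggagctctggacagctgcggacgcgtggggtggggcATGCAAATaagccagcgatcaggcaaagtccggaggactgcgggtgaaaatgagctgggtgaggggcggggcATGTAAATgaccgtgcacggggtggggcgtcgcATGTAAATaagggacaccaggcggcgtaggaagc

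The Il4 window held 5 NFAT cores, where at least 5 were held by 0.39% of 32851 promoter windows of the same length, and no octamer. The window was picked as the highest among these genes, so this share is that of a chosen extreme. The Il13 window held 4 NFAT cores, and the window of a second Il4 start (chr11:53617339-53617588) held 0. The Il4ra window held 1 exact octamer, ATGCAAAT, 139 bases before the RefSeq start used here, a motif found on either strand in 1.6% of the windows. The Il4ra window held 3 matches to ATGNAAAT in all, against at least 3 in 0.0365% of the windows. This RefSeq start lay downstream of the start of the Il4ra span given above, chr7:125552120. By that span all 3 matches lay inside the gene. The relaxed motif was searched after the sequence had been seen. None of the windows of Il13, Il5, Kif3a and Gata3, nor the second Il4 start in the tables, held the octamer in either form. These matches are letters in a window and do not show binding.

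Il4 was transcribed at a high level in Tfh cells of both genotypes, and its mean was lower in Bob1KO cells by less than the spread between libraries. Il4 had 55.7, 47.6 and 23.7 FPKM in the Bob1KO libraries, against 79.4, 55.1 and 35.8 FPKM in the WT libraries. The groups overlapped, since the highest Bob1KO library was above 2 of the 3 WT libraries. Mean levels were 42.3 ± 16.7 FPKM in Bob1KO and 56.8 ± 21.8 FPKM in WT (SD, n = 3 each), so that the Bob1KO mean was 74.6% of the WT mean. The log2 fold change was -0.43 (SE 0.380, 95% confidence interval -1.32 to 0.46), with an adjusted P of 0.947 over 10103 genes tested with limma. The exact permutation test of the 3 libraries against 3 gave P = 0.5, where the smallest P it allows is 0.1. Of all genes tested, 0.0198% passed the adjusted threshold in either direction, which were Pou2af1 and Pcsk1, and none of the 5 locus genes tested did. None of the 5 had an unadjusted P under 0.05 either, where 3.2% of all genes were higher and 2.18% lower at that level. Nor did any of the 5 have groups that did not overlap, as 10.8% of all genes had.

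Libraries with the same number deviated together weakly across the transcriptome (r of 0.131 to 0.145), and Il4 followed this pattern. The library numbered 1 was the highest and the library numbered 3 the lowest in both groups. Within the pairs, Il4 in Bob1KO was 70.2%, 86.4% and 66.0% of its level in the WT library of the same number. It was thus lower in 3 of 3 pairs, as were 13.4% of the genes tested. With the replicate number as a block, the log2 fold change of Il4 was still -0.43 (SE 0.122, interval -0.74 to -0.12), with an unadjusted limma P of 0.016 and an adjusted P of 0.686. In that fit 2.43% of the genes had an unadjusted P under 0.05 and were lower in Bob1KO. Without the library Bob1KO 3 and with no block, the log2 fold change was -0.07, and without WT 1 it was -0.16, while without Bob1KO 1 it was -0.67 and without WT 3 it was -0.72. Leaving out 1 library of a pair mixes the level of its number with the genotype. With both libraries of a number left out, the log2 fold change of Il4 was -0.39 without number 1, -0.54 without number 2 and -0.36 without number 3.

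**Figure D1:**
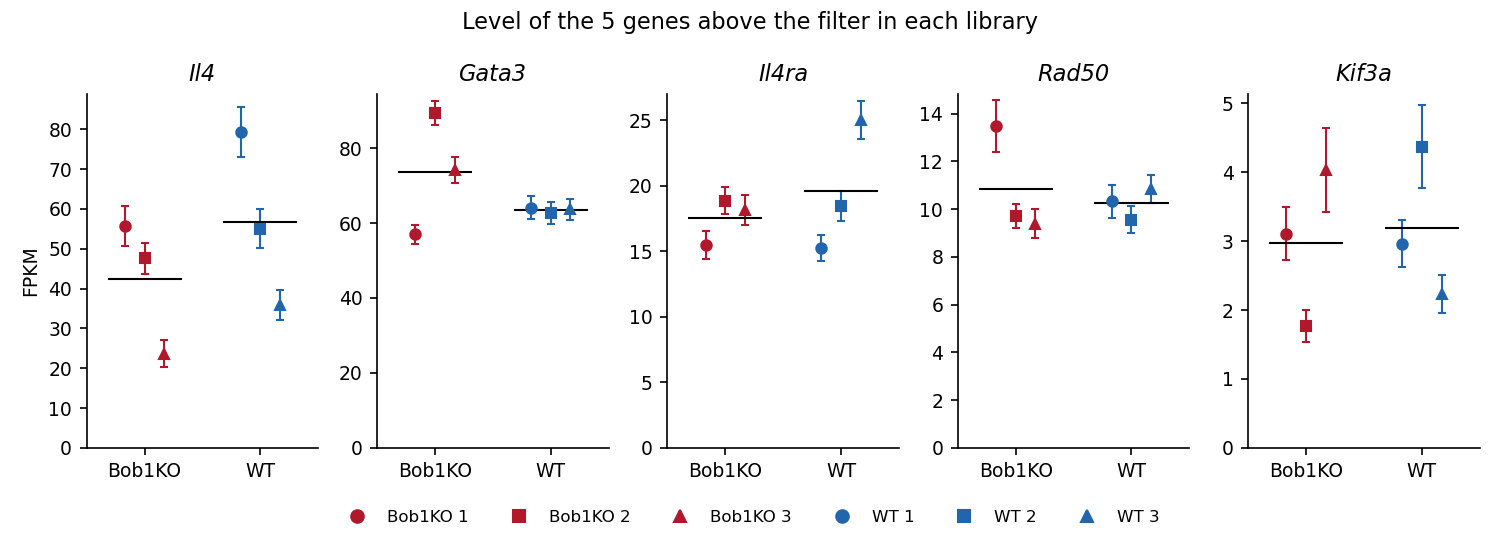
FPKM of Il4, Gata3, Il4ra, Rad50 and Kif3a in the 3 Bob1KO and 3 WT libraries; marker shapes give the replicate number, error bars the 95% interval of Cufflinks and black lines the group means. The groups overlap for each of the 5 genes, and Il4 ranges over 23.7 to 55.7 FPKM in Bob1KO and 35.8 to 79.4 FPKM in WT. The intervals cover counting error only.

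Il4 was assembled as more than 1 transcript unit in 4 of the 6 libraries, and this affected how its level was read. Each library had a row whose implied length was between 0.388 and 0.437 kb, near that of the spliced transcript, whose annotated length is 605 bases. A second row touching Il4 exons was present in Bob1KO 1, Bob1KO 2, Bob1KO 3 and WT 3, and in neither WT 1 nor WT 2. Its implied length was 3.69, 5.58 and 5.13 kb in the Bob1KO libraries and 2.48 kb in WT 3, longer than the spliced transcript. The row itself spanned 14929, 7214 and 5785 bases in the Bob1KO libraries and 2811 bases in WT 3, so its coordinates differed between libraries. In Bob1KO 1 this row ran 9.8 kb past the Il4 start, toward Il13. The second row had only 1.47, 2.05 and 2.03 FPKM in Bob1KO and 1.71 FPKM in WT 3. Because it was long, it nevertheless held 18.9%, 36.8% and 53.8% of the fragments of all rows touching Il4 exons in Bob1KO. In WT 3 it held 21.6%. In Bob1KO 1 these fragments belonged to a row that lay partly outside Il4. Where the authors assembled both groups together, the Il4 row with the RefSeq transcripts had 46.2 FPKM in Bob1KO and 65.2 FPKM in WT. A further Il4 row, of an assembled transcript only, had 1.93 FPKM in Bob1KO and 1.99 FPKM in WT. Whether that transcript was the same as the second row of single libraries was not tested.

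Counted as fragments per 1000000 mapped fragments (FPM) and not per length, the mean of Il4 was lower in Bob1KO in the spliced row and not over every row. Over every row that touched an Il4 exon, Il4 had 28.7, 31.1 and 19.4 FPM in the Bob1KO libraries, against 30.8, 24.1 and 19.7 FPM in the WT libraries. The means were 26.4 ± 6.21 in Bob1KO and 24.9 ± 5.60 in WT (SD, n = 3 each), a log2 difference of 0.08 (exact permutation test, P = 0.9). The 28.7 FPM of Bob1KO 1 included the row that ran 9.8 kb past the Il4 start, and its spliced row alone had 23.2 FPM. With that spliced row alone for Bob1KO 1 and every row for the other libraries, the Bob1KO mean falls slightly below the WT mean. The positive sign over every row thus rested on the long row of Bob1KO 1, and no test was run without it. For the spliced row alone Il4 had 23.2, 19.7 and 8.93 FPM in Bob1KO, against 30.8, 24.1 and 15.4 FPM in WT, a log2 difference of -0.50 (exact permutation test, P = 0.4). In FPKM, the same sum over every row touching an exon gave a log2 fold change of -0.44, close to that of the assigned rows, so only the fragment count over every row turned the sign. WT 1 and WT 2 had no second row to add to that count. These fragments were inferred from interval widths, this readout was added after the data were seen, and the libraries do not tell unspliced Il4 RNA from RNA of the opposite strand.

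**Figure D2:**
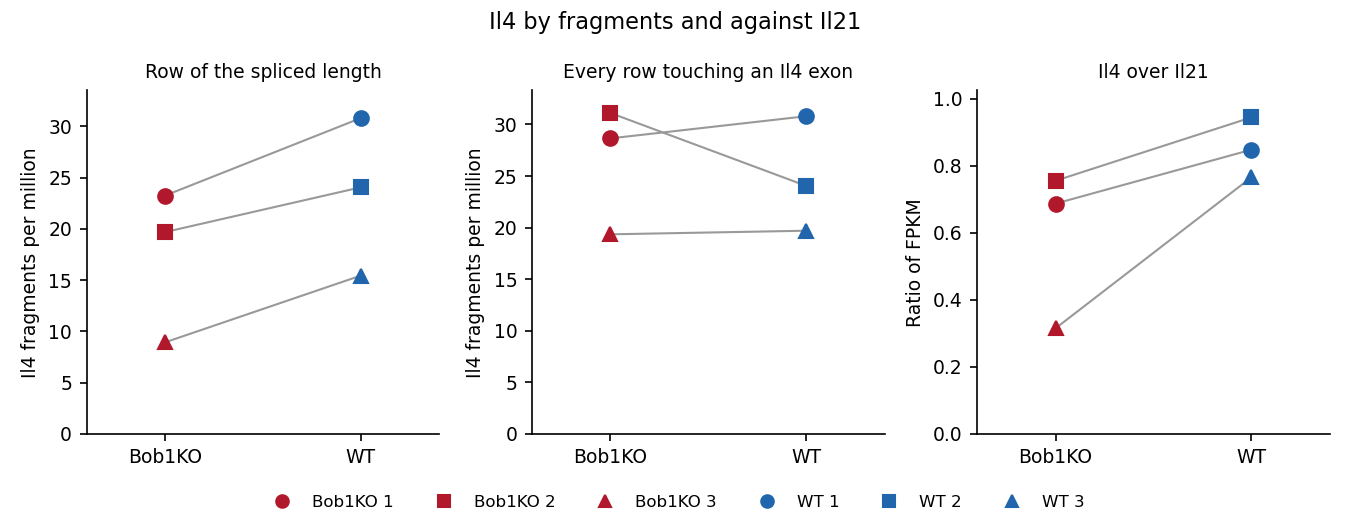
Il4 as fragments per 1000000 mapped fragments in the spliced-length row and in every row touching an Il4 exon, and the ratio of Il4 to Il21 FPKM, in Bob1KO and WT libraries; grey lines join libraries of the same replicate number. The spliced row is lower in Bob1KO in 3 of 3 pairs, while over every row the pair numbered 2 runs the other way (31.1 in Bob1KO, 24.1 in WT).

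Il21 encodes the other main cytokine of Tfh cells and serves as a reference within each library. Il21 had 81.2, 63.0 and 75.2 FPKM in Bob1KO, against 93.6, 58.3 and 46.8 FPKM in WT, with a log2 fold change of 0.19 (SE 0.249, limma adjusted P = 0.958). The ratio of Il4 to Il21 was 0.687, 0.755 and 0.315 in the Bob1KO libraries and 0.848, 0.944 and 0.765 in the WT libraries. The groups did not overlap, although Bob1KO 2 and WT 3 were separated by little. The log2 difference of the ratio was -0.62, and the exact permutation test gave P = 0.1, the smallest that 3 libraries against 3 allow. With the pairs as blocks the exact test gave P = 0.25, again the smallest it allows, and without the library Bob1KO 3 the difference was -0.23.

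Transcripts of the other Th2 cytokines were at the limit of detection. Il13, which drives mucus production and shares a receptor chain with IL-4, had 0.0431 FPKM in Bob1KO 1 and was listed at 0 in Bob1KO 2 and Bob1KO 3, against 0.0897, 0.0877 and 0.0784 FPKM in the WT libraries. These values corresponded to 1, 0 and 0 fragments in Bob1KO and to 2 in each WT library, whereas a limit of 3 fragments lies between 0.0926 and 0.131 FPKM. The groups did not overlap, but every library was under this limit, so a difference in Il13 was not detectable at this depth and no fold is given. Il5, the eosinophil growth factor, was listed at 0 in all 6 libraries, where 3 fragments would give 0.0726 to 0.103 FPKM. Il4 thus stood alone among the cytokine genes of the locus, with a mean level above that of 91.5% of the 23444 genes that had a value.

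**Figure D3:**
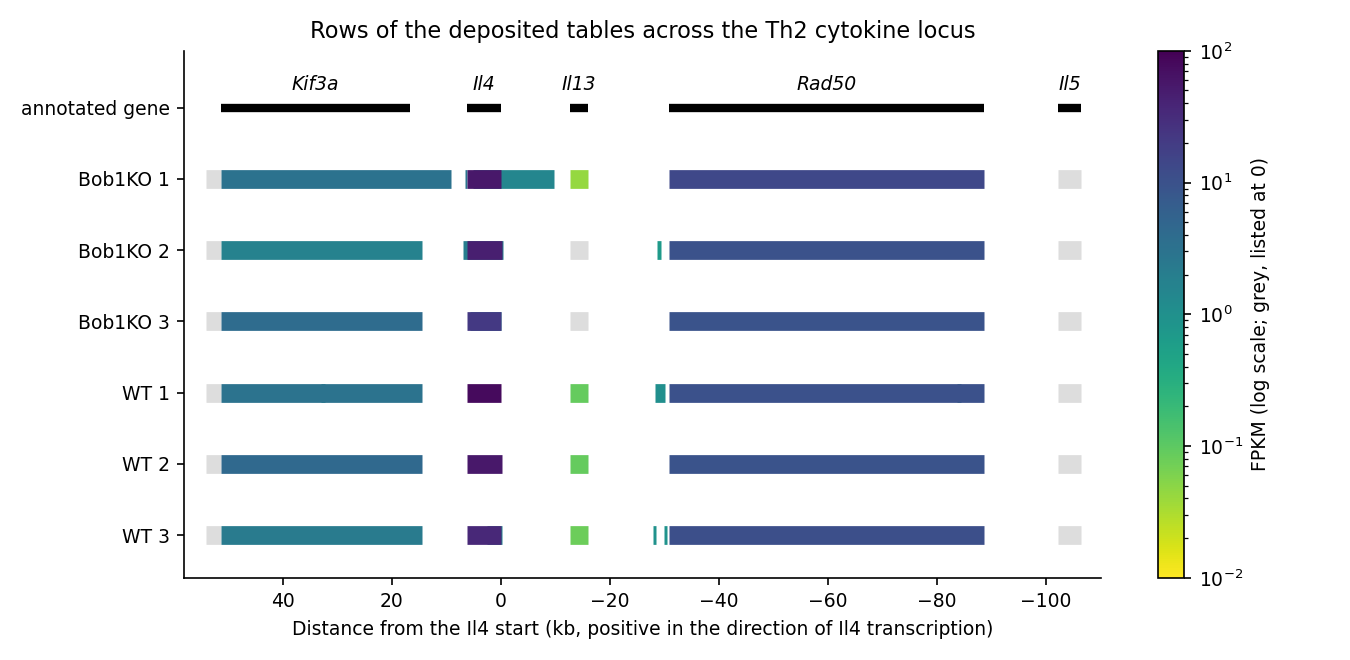
Rows of the deposited tables across the Th2 cytokine locus in each library, placed by distance from the Il4 start in kb and coloured by FPKM on a log scale (grey, listed at 0; the grey row beside Kif3a is A430108G06Rik). Il4, Rad50 and Kif3a are covered in all 6 libraries, Il5 is grey in all, and Il13 is coloured in Bob1KO 1 and the 3 WT libraries, at 0.0431 to 0.0897 FPKM.

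The 2 genes that flank the cytokine genes were expressed at lower levels than Il4, and neither passed the test. Rad50, a subunit of the MRN complex of DNA break repair, had 13.5, 9.71 and 9.38 FPKM in Bob1KO, against 10.3, 9.55 and 10.8 FPKM in WT. Its groups overlapped, with a log2 fold change of 0.06 (SE 0.166, interval -0.33 to 0.45, limma adjusted P = 0.979), and the high value in Bob1KO 1 decided its sign. Kif3a, a motor subunit of kinesin-2 needed for cilia, had 3.11, 1.77 and 4.04 FPKM in Bob1KO, against 2.97, 4.37 and 2.23 FPKM in WT. Its libraries interleaved, with a log2 fold change of -0.09 (SE 0.293, interval -0.78 to 0.60, limma adjusted P = 0.984), and the sign turned when replicate 2 of either group was left out. Between Il13 and the end of Rad50, unannotated rows lay 27.9 to 30.6 kb upstream of the Il4 start, with 0.696 FPKM in Bob1KO 2, 1.04 FPKM in WT 1 and 0.938 and 0.894 FPKM in WT 3.

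Further along the chromosome, 10 neighbours of the locus, Il4, Rad50 and Kif3a included, were tested and 0 passed the adjusted P. At an unadjusted P under 0.05, 0 were higher and 1 was lower in Bob1KO. Their median log2 fold change was 0.004, close to that of all genes at -0.003. The lower one was Uqcrq, a subunit of respiratory complex III, with 257, 232 and 217 FPKM in Bob1KO, against 297, 314 and 306 FPKM in WT. Its groups did not overlap, as was the case for 4.86% of all genes in this direction, and its log2 fold change was -0.38 (SE 0.109, limma adjusted P = 0.793). Irf1 (94.3, 104 and 114 FPKM in Bob1KO, against 114, 93.0 and 113 FPKM in WT), a regulator of interferon responses that lies beyond Il5, overlapped between the groups.

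Gata3 was the most abundant of the 7 genes by mean level, ahead of Il4 in both genotypes. Gata3 had 56.9, 89.3 and 74.2 FPKM in Bob1KO, against 64.1, 62.7 and 63.7 FPKM in WT. The WT libraries lay close together (63.5 ± 0.709 FPKM, SD, n = 3), while the Bob1KO libraries were spread on both sides of them (73.5 ± 16.2 FPKM, SD, n = 3). The log2 fold change was 0.18 (SE 0.166, interval -0.21 to 0.57, limma adjusted P = 0.947). It was 0.35 without Bob1KO 1 and 0.03 without Bob1KO 2. Il4 and Gata3 did not move together over the libraries, with r = -0.34 between them over 6 libraries. The ratio of Il4 to Gata3 was 0.979, 0.532 and 0.319 in Bob1KO, against 1.24, 0.878 and 0.563 in WT, so the groups overlapped in this ratio too. In WT cells Il4 (35.8 to 79.4 FPKM) and Gata3 overlapped, whereas both were above Il4ra, Il4ra above Rad50 and Rad50 above Kif3a in every WT library, and the same order from Il4ra down held in every Bob1KO library.

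Of the genes listed as positive regulators of Il4 in CD4+ T cells, 30 were tested and 0 passed the adjusted P. At an unadjusted P under 0.05, 2 were higher and 0 were lower in Bob1KO, and 22 of the 30 had a positive fold change, with a median of 0.17, where 4989 of the 10103 genes tested were positive. Bhlhe40, a repressor that shapes T helper cytokine output, had 104, 102 and 72.4 FPKM in Bob1KO, against 75.5, 44.2 and 57.5 FPKM in WT (log2 fold change 0.66, SE 0.225, limma adjusted P = 0.905). Irf4, a factor required for Th2 and Tfh differentiation, had 5.62, 5.87 and 7.75 FPKM in Bob1KO, against 4.91, 4.78 and 2.89 FPKM in WT (log2 fold change 0.53, SE 0.221, limma adjusted P = 0.918). The groups did not overlap for Irf4, as in 5.9% of all genes in this direction, and they did for Bhlhe40. None of the 17 tested negative regulators passed either the adjusted or the unadjusted threshold, and their median was -0.008. The smallest P among them belonged to Socs5, an inhibitor of IL-4 receptor signalling, with 3.63, 3.86 and 3.48 FPKM in Bob1KO, against 2.88, 1.95 and 2.92 FPKM in WT, and a log2 fold change of 0.39 (SE 0.186, limma adjusted P = 0.934).

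On the receiving side, Il4ra did not pass the test. Il4ra, the chain that binds IL-4, had 15.5, 18.9 and 18.1 FPKM in Bob1KO, against 15.3, 18.5 and 25.0 FPKM in WT. The Bob1KO libraries lay within the range of the WT libraries, where WT 3 was the highest. The log2 fold change was -0.13 (SE 0.19, interval -0.58 to 0.32, limma adjusted P = 0.964), and it was 0.05 without WT 3. Of 13 tested genes of IL-4 and IL-13 receptor signalling, 0 passed the adjusted P, and at an unadjusted P under 0.05 the count was 1 higher and 0 lower, with a median of 0.01. The higher one was the kinase gene Tyk2, with 31.6, 31.96 and 31.7 FPKM in Bob1KO, against 24.6, 27.6 and 27.4 FPKM in WT (log2 fold change 0.25, SE 0.104, limma adjusted P = 0.918). The phosphatase gene Ptpn11 had 44.1, 31.0 and 32.6 FPKM in Bob1KO, against 44.4, 40.2 and 54.2 FPKM in WT, with overlapping groups (log2 fold change -0.36, SE 0.175, limma adjusted P = 0.934).

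Genes that mark Th2 effector cells were mostly low or not detected. Of the listed genes with a value, 8 were tested and 10 were under the filter, and 5 of the 10 (Il5, Il9, Il31, Il24 and Il3) were listed at 0 in all libraries. None of the 8 passed the adjusted P, and at an unadjusted P under 0.05, 1 was higher and 0 were lower. Ccr4, a chemokine receptor of Th2 and regulatory cells, had 14.4, 13 and 9.83 FPKM in Bob1KO, against 5.82, 11.5 and 6.14 FPKM in WT (log2 fold change 0.65, SE 0.265, limma adjusted P = 0.918). Ccr8, another receptor of these cells, had 29.2, 22.7 and 13.8 FPKM in Bob1KO, against 18.4, 7.22 and 11.5 FPKM in WT (log2 fold change 0.80, SE 0.367, limma adjusted P = 0.927). Both overlapped between the groups.

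**Figure D4:**
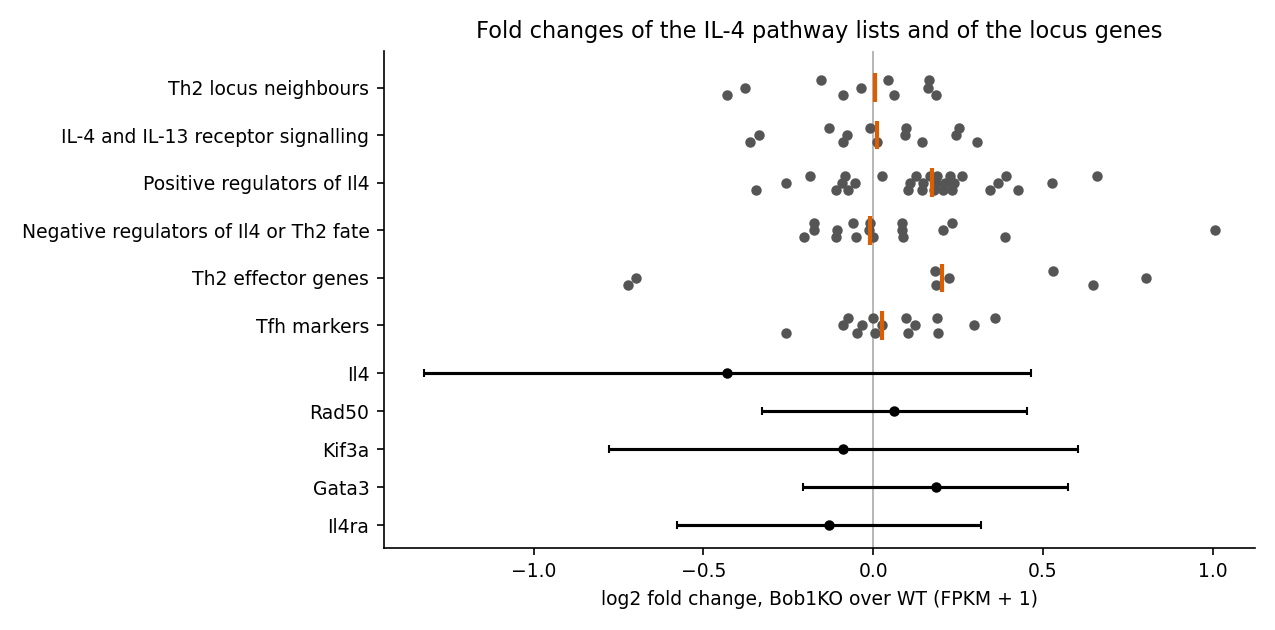
Log2 fold changes of Bob1KO over WT for the tested genes of 6 lists (grey points, with the list median as an orange bar) and for the 5 tested locus genes (black points with 95% confidence intervals). The interval of Il4 runs from -1.32 to 0.46, and the intervals of all 5 genes include 0.

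Cells other than Tfh cells can make IL-4, and their markers were read in the same libraries. Basophils, mast cells, eosinophils and ILC2 lack the combination CD3+CD4+CXCR5+PD-1+ that the sort selected. How fully the sort removed these cells was not tested, and some of their markers had values, given below. In bulk RNA, fewer cells of a type and less RNA per cell cannot be told apart. The summed level of 14 basophil and mast cell markers was 53.6, 14.5 and 23.4 FPKM in Bob1KO, against 20.03, 17.5 and 17.5 FPKM in WT. By mean level the most abundant of them were Il3ra (17.1, 9.57 and 9.42 FPKM in Bob1KO, against 12.3, 10.4 and 8.18 FPKM in WT) and Hdc (11.3, 3.78 and 8.85 FPKM in Bob1KO, against 3.81, 4.18 and 4.07 FPKM in WT). The basophil proteases Mcpt8 (6.68, 0 and 0.796 FPKM in Bob1KO, against 1.18, 0.443 and 1.41 FPKM in WT) and Prss34 (15.03, 0 and 2.84 FPKM in Bob1KO, against 1.91, 1.70 and 2.75 FPKM in WT) were highest in Bob1KO 1, and the mast cell proteases Tpsb2, Cma1 and Mcpt4 were listed at 0 in all libraries. In the same order of libraries, Il4 had 55.7, 47.6 and 23.7 FPKM in Bob1KO, against 79.4, 55.1 and 35.8 FPKM in WT. The summed level of the 7 eosinophil markers with a value was 26.7, 0.313 and 22.6 FPKM in Bob1KO, against 1.36, 0.319 and 0.402 FPKM in WT, carried by Prg2 (20.2, 0 and 17.4 FPKM in Bob1KO, against 1.02, 0 and 0.059 FPKM in WT). The sums of the 13 neutrophil and monocyte markers with a value were 4905, 88.6 and 1580 FPKM in Bob1KO, against 721, 566 and 1078 FPKM in WT. They spread far more widely in Bob1KO than in WT, with Bob1KO 1 the highest and Bob1KO 2 the lowest of all libraries. Sums of the NKT and innate-like T cell markers were 46.3 to 55.1 FPKM in Bob1KO and 52.9 to 58.3 FPKM in WT, and Zbtb16, which defines NKT cells, was at most 0.576 FPKM. Klrb1c in the same list had 8.55 to 12.2 FPKM in Bob1KO and 7.89 to 10.6 FPKM in WT. Within this list Cxcr6, a chemokine receptor, had 16.03, 13.02 and 13.1 FPKM in Bob1KO, against 26.1, 20.6 and 22.6 FPKM in WT (log2 fold change -0.68, SE 0.144, limma adjusted P = 0.434). The 10 ILC2 markers summed to 112, 164 and 131 FPKM in Bob1KO, against 129, 126 and 124 FPKM in WT. Most of this came from Gata3 and Rora. Rora had 32.1, 48.6 and 43.1 FPKM in Bob1KO, against 31.4, 43.0 and 44.7 FPKM in WT. Il1rl1 on the same list was at most 0.107 FPKM. The 10 NK and CD8+ T cell markers summed to 179.7, 225 and 116 FPKM in Bob1KO, against 379.5, 291 and 250.4 FPKM in WT, without overlap. This difference was carried by the chemokine gene Ccl5, with 59.6, 85.6 and 22.9 FPKM in Bob1KO, against 275, 159 and 99.9 FPKM in WT (log2 fold change -1.72, SE 0.528, limma adjusted P = 0.836), while Cd8b1 was at most 5.995 FPKM. Nkg7 had 96.2, 119 and 68.3 FPKM in Bob1KO, against 83.6, 107 and 125 FPKM in WT. Sums of the regulatory T cell markers overlapped, at 382 to 431 FPKM in Bob1KO and 341 to 442 FPKM in WT, and Foxp3 had no value. Within this list Gpr83 was lower in Bob1KO (3.57, 3.58 and 3.53 FPKM, against 6.79, 6.02 and 7.38 FPKM in WT; limma adjusted P = 0.371). Nrp1 was higher (43.5, 43.3 and 42.4 FPKM, against 32.9, 39.8 and 30.9 FPKM in WT, limma adjusted P = 0.907). Neither overlapped between the groups, as was the case for 10.8% of all genes. The part of any of these cells in the Il4 level was not tested.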

How the data were processed

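RNA of sorted Tfh cells was sequenced in 3 Bob1KO and 3 WT libraries, grouped by the labels. Per the submitters' processing notes, the authors used cutadapt 1.2.1, TopHat2 2.0.13 with GRCm38 (mm10) and Cufflinks 2.2.1, and deposited FPKM with 95% intervals on transcripts assembled in each library alone. Which annotation version guided this was not given in the sources. A deposited table of both groups, made on 1 common assembly, gives a group FPKM per row, printed as the authors' value; its columns of fold change, test statistic, p-value and q-value were not used.

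Rows were assigned to the gene with which they shared at least 0.5 of the joint span, or covered at least 0.95 of it in a second round, and summed, which gave 23444 genes. The 10103 genes averaging 1 FPKM or more were tested with limma 3.58.1 (R 4.3.3) on values of log2(FPKM + 1), with a variance trend and Benjamini-Hochberg adjustment (two-sided, threshold 0.05). Fold changes are on this scale and understate those of low genes. Exact permutation tests used scipy 1.17.1. Fragments were inferred from interval widths, n being 4 times the squared ratio of FPKM to the distance to its upper bound. They came out whole within 0.02 for 72.7% to 78.2% of named rows under 30 fragments, which is too few to recover counts, and for a row with several transcripts they are an effective number. Intervals and the limit of 3 fragments cover counting error only. The fit was tested on simulated data.

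Deviations from the group means correlated weakly between same-numbered libraries (r = 0.14, 0.145 and 0.131 over 10103 genes, against -0.105 to -0.0409 for the other pairs), so the numbers were taken to pair the libraries. The deviations of a gene cancel out within a group, so the negative values are not independent of the positive ones. Beyond this, p-values measure only the spread between these libraries. The 7 genes and the gene lists were chosen with earlier results of these data known. Named are these genes, the 5 genes averaging 10 FPKM or more whose level was most like that of Il4, genes of each list that passed the adjusted P or up to 2 with the smallest P, up to 3 abundant markers of other cells, and Il21, Cd4 and Pou2af1. Ddx3y, Irf1, Pcsk1, Mcpt8, Zbtb16, Il1rl1 and Cd8b1, the genes listed at 0 and the unannotated rows were named after their values were seen. Symbols without a value are not analysed here.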

Additional observations from a re-analysis of the deposited data

How the results depend on the processing

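The 5 locus genes tested stayed without a call at the adjusted P under every limma setting tried: other pseudocounts, filters, scalings, a robust variance model, other ways of assigning rows, the replicate block and fewer libraries (lowest adjusted P 0.686). Settings that left out replicate 1 or 3 of both groups, and the inferred fragments per 1000000 mapped fragments, were chosen after seeing the data. Il4 was lower in Bob1KO in each of them except as such fragments over every row, where its log2 difference was 0.0805. That positive sign rested on the long row of Bob1KO 1. With 1 library left out, the log2 fold change of Il4 lay between -0.718 and -0.0665. That of Rad50 lay between -0.0895 (without Bob1KO 1) and 0.149, of Kif3a between -0.281 and 0.151 (without Bob1KO 2; 0.107 without WT 2), of Gata3 between 0.0326 and 0.353 and of Il4ra between -0.287 and 0.0519 (without WT 3). Signs also turned for Rad50 without replicate 1 of both groups (-0.0828), for Kif3a without replicate 2 of both groups (0.346) and for Il4ra without replicate 3 of both groups (0.0252). Kif3a could not be tested with a mean FPKM of at least 5. The log2 ratio of Il4 to Il21 lay between -0.849 and -0.235 with 1 library left out.

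With the replicate block, which used the pairing of the libraries, 0 genes were called higher and 1 lower, with 389 and 245 at an unadjusted P under 0.05; the log2 fold change of Il4 was -0.43 with an adjusted P of 0.686, and no call on the locus genes changed. Of all genes, limma called 1 higher and 1 lower. It called 0 higher with a pseudocount of 0.1 (321 at an unadjusted P under 0.05), with a mean FPKM of at least 5 (213), without replicate 2 of both groups (284) and without replicate 3 of both groups (232), and 2 higher with median-of-ratios scaling and with quantile normalization. It called 2 lower without a filter and without replicate 2 of both groups, 4 without replicate 1 of both groups and 0 without replicate 3 of both groups (107). With 1 library left out, 0 to 3 were called higher and 1 to 5 lower. The cause of these shifts was not tested. Pou2af1 lost its call without replicate 2 of both groups (log2 fold change -4.60, adjusted P = 0.0584) and without replicate 3 of both groups (-4.60, adjusted P = 0.287), where 2 libraries per group remained. The depth limits Il13 and Il5, whose 6 libraries each held at most 2 fragments.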

Other observations

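The genes whose level was most like that of Il4 over the 6 libraries, among 6157 genes with a mean of at least 10 FPKM, were Ilk (Pearson r = 0.97 on log2(FPKM + 1)), Fmnl3 (r = 0.968), Med7 (r = 0.959), Fam193b (r = 0.958) and 2310045N01Rik (r = 0.954). Ilk, which encodes integrin-linked kinase, had 122, 114 and 94.3 FPKM in Bob1KO, against 135, 119 and 114 FPKM in WT. Fmnl3, a formin of the actin cytoskeleton, had 29.4, 23.9 and 15.3 FPKM in Bob1KO, against 32.3, 24.1 and 21.1 FPKM in WT. Med7, a subunit of the Mediator complex, had 27.1, 20.7 and 12.6 FPKM in Bob1KO, against 28.9, 20.6 and 16.8 FPKM in WT. As for Il4, the library numbered 3 was the lowest of each group for these 3 genes. The r values describe 6 libraries that share their pairing, and the genes were picked as the extremes of many. The locus genes were less like Il4, with r = 0.304 for Rad50, -0.108 for Kif3a, -0.338 for Gata3 and -0.539 for Il4ra, and Il21 had r = 0.396.

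Il4ra also had rows inside the gene that touched no annotated exon, with 2.57 FPKM in Bob1KO 2, 1.06 FPKM in WT 1 and 3.01 FPKM in WT 2. The row in Bob1KO 2 lay at chr7:125552351-125554427 and that in WT 2 at chr7:125552435-125554407 of GRCm38, just downstream of the RefSeq start of Il4ra. They were in libraries of both genotypes and entered no comparison.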
